A study of Homo sapiens with 6 samples.

Results

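Interferon-stimulated genes are the antiviral and signalling genes that cells switch on after sensing interferon. A hand-written list of 44 of them was looked up by gene name in the deposited transcript table, which holds 31768 genes, and all 44 were present with 616 transcript rows. Of these genes, 42 passed the filter on low counts and were tested among 11118 genes, while DTX3L and GBP2 did not pass it. The rule matches gene names and sets no limit on a measured value, but the list was written with earlier results of these data known.

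Type I interferons bind a receptor of the IFNAR1 and IFNAR2 chains, whose kinases JAK1 and TYK2 phosphorylate STAT2 and its partners. With IRF9 these form the ISGF3 complex, which binds interferon-stimulated response elements before its target genes, whereas interferon gamma acts through gamma-activated sites. The products of the induced genes detect or destroy foreign RNA, block virus entry and release, attach the ubiquitin-like protein ISG15 to other proteins and renew the signalling chain itself, and microglia are known to run this programme after infection and injury of the brain.

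The cells were HMC3, an immortalized line derived from human microglia, and no other line was used. Irradiated cells received 15 Gy of X-rays and control cells 0 Gy, and RNA was taken 24 h later from 3 independent cultures in each group. Polyadenylated RNA was sequenced as full-length cDNA after PCR on Oxford Nanopore flow cells. The design addresses which genes and isoforms differ after radiotherapy. No interferon-treated culture was among the samples.

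The irradiated libraries held between 6292049 and 6909420 counts and the control libraries between 4870897 and 9082409. Log2 CPM correlated at 0.976 to 0.979 among irradiated libraries and at 0.970 to 0.973 among controls. With irradiated libraries, control 3 correlated at 0.963 to 0.971, and controls 1 and 2 at 0.937 to 0.952. Of 12 microglia and macrophage markers 5 had no count in any library (CX3CR1, P2RY12, TMEM119, ITGAM and TYROBP), and the 12 summed to between 32.8 and 37.2 CPM in irradiated libraries and between 24.3 and 37.4 CPM in controls. Most of that sum was CD68, at 29.8, 32.1 and 34.3 CPM in irradiated libraries, against 27.6, 33.3 and 21.8 CPM in controls. Fibroblast and pericyte markers summed to between 266 and 319 CPM in irradiated libraries and between 304 and 326 CPM in controls, with 2 of the 10 at 0 in every library (COL3A1 and LUM). Within that sum, with CPM scaled by TMM factors, the genes differed in direction. ACTA2 was at 17.1, 15.6 and 10.2 CPM in irradiated libraries, against 4.60, 4.72 and 3.32 CPM in controls, and COL1A2 at 8.19, 6.59 and 8.33 CPM in irradiated libraries, against 2.18, 3.39 and 3.32 CPM in controls. THY1 was at 73.1, 96.6 and 77.3 CPM in irradiated libraries, against 137, 127 and 120 CPM in controls. None of these 3 overlapped between groups on that scale. Of all genes tested, 21.5% lay higher and 21.3% lower without overlap. COL1A1, the largest part of the sum, overlapped (212, 197 and 167 CPM in irradiated libraries, against 178, 166 and 190 CPM in controls), as did PDGFRB. The part of these markers in the member results was not tested. Astrocyte and neuron markers summed to between 15.9 and 25.8 CPM in irradiated libraries and between 22.3 and 26.9 CPM in controls, mostly from SNAP25. Of 6 plasmacytoid dendritic and lymphoid markers 5 had no count in any library.

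The letters of the response element and of the gamma-activated site were searched in RefSeq promoter windows (GRCh38.p14, 250 bases before to 50 bases after each annotated start, both strands), and 34 of the 44 symbols had a window. The response element was searched as 2 runs of GAAA parted by any 2 bases and the gamma-activated site as TTCNNNGAA, and matches of both kinds may overlap each other. The response element was found in 22 of the 34 genes (64.7%), against 4.38% of all 27305 symbols with a window. The gamma-activated site was found in 9 of 34 (26.5%), against 9.38% of all symbols. Sequences are shown for both kinds of element before genes that rose (OAS3, BST2, ISG20, PARP9 and IRF1), genes that fell (IFITM1 and IRF9) and ISG15, which did not pass the gene-level test. Each is written along the gene's own strand with the matching bases in capitals. The first 6 sequences carry the response element, which in PARP9 matches on the opposite strand, and the last 2 carry the gamma-activated site.
OAS3, chr12:112938321-112938350, plus strand, 143 bases before the start: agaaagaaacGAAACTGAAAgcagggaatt
BST2, chr19:17405741-17405770, minus strand, 130 bases before the start: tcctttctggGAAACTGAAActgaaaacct
ISG20, chr15:88638937-88638966, plus strand, 69 bases before the start: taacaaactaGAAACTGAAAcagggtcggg
PARP9, chr3:122564322-122564351, minus strand, 41 bases before the start: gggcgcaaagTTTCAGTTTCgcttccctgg
ISG15, chr1:1013380-1013409, plus strand, 107 bases before the start: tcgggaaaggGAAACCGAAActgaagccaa
IFITM1, chr11:313990-314019, plus strand, 40 bases before the start: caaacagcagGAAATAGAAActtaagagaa
IRF1, chr5:132490879-132490907, minus strand, 124 bases before the start: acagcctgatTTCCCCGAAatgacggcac
IRF9, chr14:24161192-24161220, plus strand, 63 bases before the start: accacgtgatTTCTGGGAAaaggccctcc

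Further response element matches, 1 in BST2 and 1 in ISG15, each overlap the one shown by 4 bases. In BST2 a gamma-activated site match overlaps the response element as well. The PARP9 match and the one counted for DTX3L are the same bases, read along opposite gene strands. Among members with a window, the response element was found in 7 of 12 that rose, in 1 of 3 that fell and in 13 of 18 that did not pass the test. The gamma-activated site was found in 4 of 12, in 3 of 3 and in 2 of 18 of them. A match is a description of these letters and not evidence of binding.

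After irradiation 17 of the 42 tested members rose and 3 fell (edgeR quasi-likelihood test, adjusted p under 0.05 over all genes tested), and 22 did not pass the test. Over all genes 25.7% passed in either direction. The members that rose make up 40.5%, beside 11.6% of all genes tested, and those that fell 7.14%, beside 14.1%. ADAR, BST2, IRF7, OAS3, PML, SP100, STAT2 and TRIM22 were called higher under every alternative setting that was run. The log2 fold change was above 0 in 31 members (73.8%), beside 54.8% of all genes, and its median was 0.34 in members, beside 0.080 in all genes. Increases were small: TRIM22 alone passed a log2 fold change of 1 (4.0% of all genes did so upward and 1.70% downward). In 20 members (47.6%) every irradiated library lay above every control, beside 21.5% of all genes, and in 2 members every irradiated library lay below every control, beside 21.3%. Scaled by library totals alone, 31 members rose and 0 fell, with medians of 0.79 in members and 0.53 in all genes, so changes are given relative to that shift of all genes.

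The number called depended on single libraries. Without irradiated library 1 there were 11 members called, without irradiated library 3 also 11 and without control 2 there were 12, against 20 with all libraries. Past a log2 fold change of 1 there were 3 without irradiated library 3 and 4 without control 3, against 1. With DESeq2 the calls of HERC6 (adjusted p = 0.0772), MX1 (0.0869) and PARP14 (0.0512) were lost, and without a filter on low counts those of HERC6 (edgeR, adjusted p = 0.0518), IRF9 (0.0729), MX1 (0.0808) and OAS1 (0.0521). In such bulk libraries a change in the share of cells that express a gene cannot be told apart from a change in RNA per cell.

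**Figure D1:**
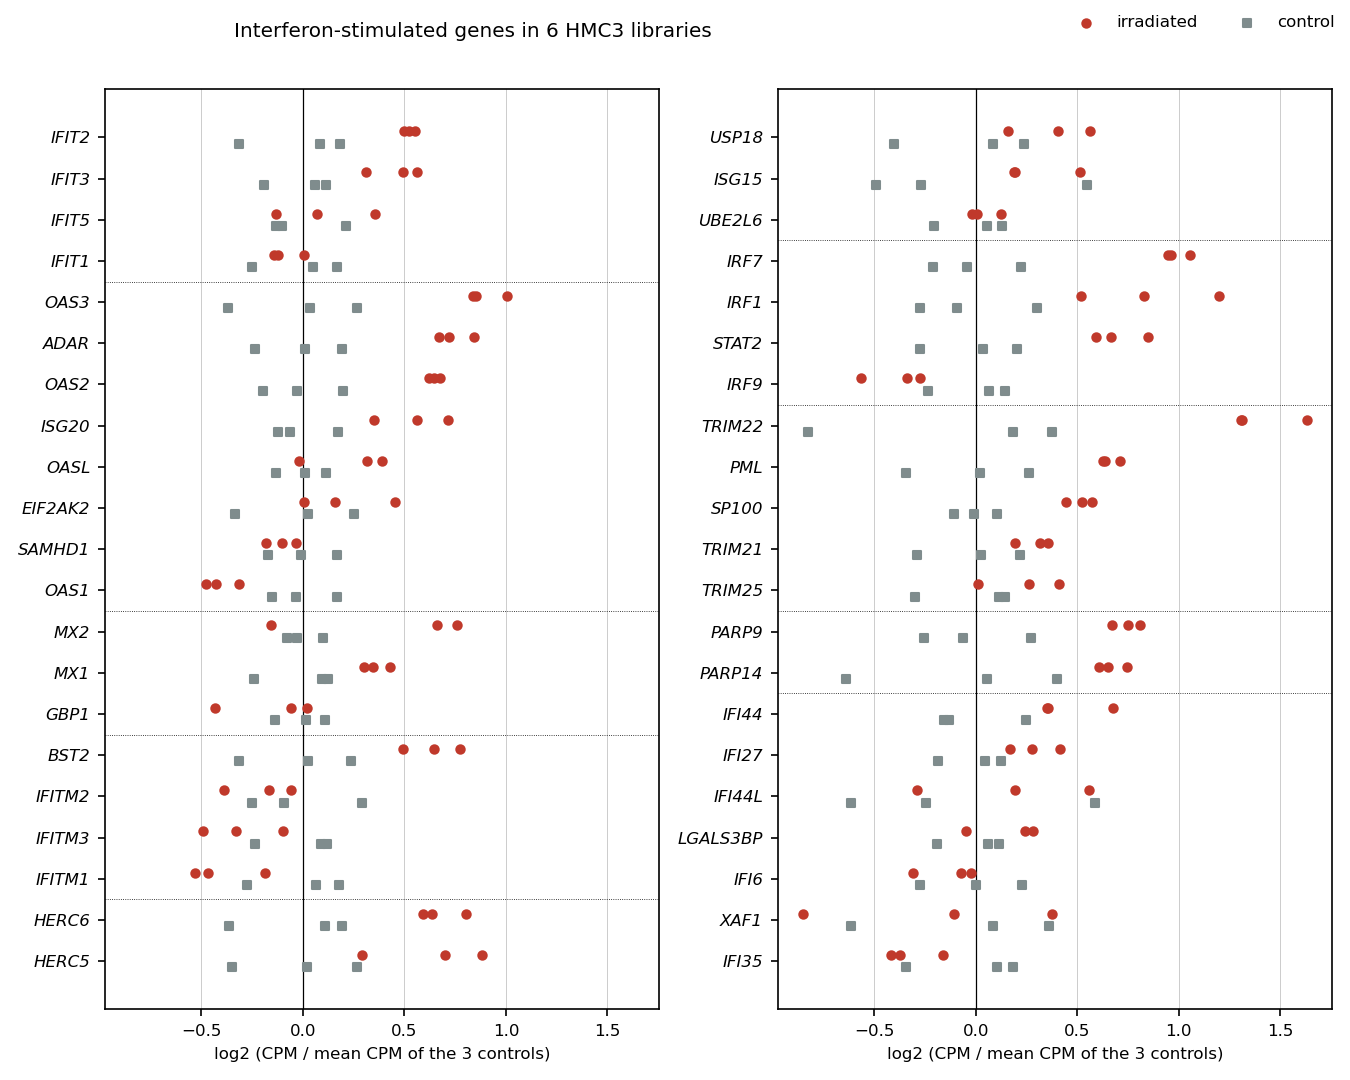
CPM of the 42 tested members in each library, divided by the mean of the 3 controls and shown on a log2 axis, with irradiated libraries as red circles and controls as grey squares. Dotted lines part the role groups. On average over the 3 irradiated libraries TRIM22, IRF7 and OAS3 lie farthest to the right, although irradiated library 1 lies farther right in IRF1 than in IRF7 or OAS3. IFITM1, IRF9 and OAS1 lie below the control mean in all 3 irradiated libraries, although the log2 fold change of each of these 3 genes is above 0 when libraries are scaled by their totals alone.

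The members took 1.04, 0.988 and 0.909% of all counts in irradiated libraries, against 0.844, 0.726 and 0.724% in controls. IFITM3, IFI6 and IFITM1 held 41.4, 12.4 and 8.55% of the members' counts, which are not divided by length. After TMM scaling the members summed to 8348, 9050 and 7694 CPM in irradiated libraries, against 9946, 9160 and 7807 CPM in controls, a ratio of 0.932. Without those 3 genes the sums were 3462, 3511 and 3358 CPM in irradiated libraries, against 3286, 2868 and 2777 CPM in controls, a ratio of 1.16. Scaled by library totals alone, the sum over all members had a ratio of 1.28.

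Gene coordinates are those of GENCODE release 29 on GRCh38. The transcription factors of the pathway contained 3 members that rose and 1 that fell. IRF7, which amplifies interferon production (chr11:612553-615999), was measured at 65.4, 69.99 and 64.8 CPM in irradiated cultures, against 32.6, 29.1 and 39.2 CPM in controls. All irradiated values exceeded all control values, and the increase was the largest of the 4 factors (log2 fold change 0.98, SE 0.15, adjusted p = 0.000764). STAT2, which joins IRF9 in ISGF3 (chr12:56341597-56360155), was at 67.97, 81.1 and 71.4 CPM in irradiated cultures, against 46.2, 37.2 and 51.8 CPM in controls. The groups did not overlap and STAT2 rose (log2 fold change 0.70, SE 0.15, adjusted p = 0.00414). IRF1, a factor induced through gamma-activated sites (chr5:132481609-132490798), was at 24.4, 18.8 and 15.2 CPM in irradiated cultures, against 8.78, 9.94 and 13.1 CPM in controls. It rose in all 3 irradiated libraries over every control (log2 fold change 0.85, SE 0.24, adjusted p = 0.0175), but did not pass the test without irradiated library 1 (adjusted p = 0.107), without control 1 (0.0542) or without control 2 (0.0578).

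IRF9, the DNA-binding part of ISGF3 (chr14:24161053-24166565), moved the other way. It was at 152, 186 and 178 CPM in irradiated cultures, against 236, 249 and 191 CPM in controls. All irradiated values were below all control values and IRF9 fell by 0.38 on the log2 scale (SE 0.13, adjusted p = 0.0402), whereas with library totals alone its log2 fold change was 0.071. The call was lost without irradiated library 1 (adjusted p = 0.168), irradiated library 3 (0.0963), control 1 (0.118) or control 2 (0.154). The ratio of IRF9 to STAT2 counts, which does not depend on library scaling, was 2.24, 2.30 and 2.497 in irradiated cultures, against 5.10, 6.70 and 3.69 in controls. That pair was chosen after its values were seen. Counted transcripts with a known length averaged 1347 bases in IRF9 and 3179 in STAT2, and the ratio does not remove a trend with transcript length. An overlapping gene model, AL136295.5, shares part of the IRF9 locus, and whether reads were counted by strand is not stated.

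The RNA- and nucleotide-directed enzymes held 4 members that rose, 1 that fell and 3 that did not pass the test. The oligoadenylate synthetases make short 2′-5′ linked adenylate chains on double-stranded RNA, which activate RNase L. OAS3 (chr12:112938352-112973249) was at 105, 94.4 and 93.2 CPM in irradiated cultures, against 53.4, 40.4 and 62.8 CPM in controls. Its irradiated values were all above the highest control, and it rose (log2 fold change 0.90, SE 0.16, adjusted p = 0.00123). OAS2 (chr12:112978395-113011723) was at 33.2, 33.9 and 32.6 CPM in irradiated cultures, against 20.8, 18.5 and 24.3 CPM in controls. It also rose without overlap between the groups (log2 fold change 0.64, SE 0.18, adjusted p = 0.0153). Only 4 of the 6 fits with 1 library left out kept that call, and the largest adjusted p was without control 2 (0.0579).

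OAS1, which lies beside OAS3 on the same strand (chr12:112906777-112933222), was at 154, 167 and 149 CPM in irradiated cultures, against 233, 203 and 187 CPM in controls. The groups did not overlap and OAS1 fell by 0.40 on the log2 scale (SE 0.12, adjusted p = 0.0229), whereas with library totals alone its log2 fold change was 0.050. The call was lost without irradiated library 1 (adjusted p = 0.0759), irradiated library 3 (0.108) or control 1 (0.124). The ratio of OAS1 to OAS3 counts was 1.47, 1.77 and 1.60 in irradiated cultures, against 4.36, 5.03 and 2.98 in controls, so the relation within the family moved under any library scaling. The pair was chosen after its values were seen, and the overlapping gene model AC004551.1 spans part of this locus. Counted transcripts with a known length averaged 1768 bases in OAS1 and 3234 in OAS3. A ratio does not remove a trend with transcript length, whose part was not tested. OASL, a relative without synthetase activity, was at 10.03, 13.3 and 12.7 CPM in irradiated cultures, against 9.28, 10.2 and 10.998 CPM in controls, and the groups overlapped (log2 fold change 0.23, SE 0.24, adjusted p = 0.505).

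ADAR, which edits adenosines in double-stranded RNA (chr1:154582057-154628013), was at 265, 243 and 235 CPM in irradiated cultures, against 149, 126 and 169 CPM in controls. The lowest irradiated library exceeded the highest control, and ADAR rose (log2 fold change 0.75, SE 0.13, adjusted p = 0.00109). ISG20, an exonuclease that degrades single-stranded RNA, was at 75.1, 58.3 and 67.5 CPM in irradiated cultures, against 51.4, 41.9 and 43.7 CPM in controls. It rose (log2 fold change 0.56, SE 0.15, adjusted p = 0.0137), but did not pass without irradiated library 1 (adjusted p = 0.0793), irradiated library 3 (0.0529) or control 2 (0.0528). EIF2AK2, the kinase PKR that halts translation on double-stranded RNA, was at 89.2, 99.5 and 122 CPM in irradiated cultures, against 90.6, 70.7 and 106 CPM in controls and did not pass (log2 fold change 0.22, SE 0.16, adjusted p = 0.336). SAMHD1, which hydrolyses deoxynucleotides, gave -0.10 on the log2 scale (adjusted p = 0.604) that became 0.35 with library totals alone (adjusted p = 0.0307).

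IFIT proteins bind RNA ends that look foreign, and their genes sit side by side on chromosome 10. IFIT3, which stabilises IFIT1 (chr10:89327894-89340971), was at 139, 158 and 166 CPM in irradiated cultures, against 117, 121 and 98.1 CPM in controls. The groups did not overlap, and IFIT3 rose (log2 fold change 0.46, SE 0.13, adjusted p = 0.0159), although not without irradiated library 3 (adjusted p = 0.0883). IFIT2 (chr10:89283694-89309276) was at 52.98, 55.03 and 53.9 CPM in irradiated cultures, against 42.6, 39.8 and 30.2 CPM in controls. It rose with irradiated libraries that differed little among themselves (log2 fold change 0.53, SE 0.16, adjusted p = 0.0232), but did not pass without irradiated library 1 (adjusted p = 0.0623), 2 (0.0548) or 3 (0.0735), nor without control 3 (0.0634).

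IFIT1, which binds capped RNA that lacks methylation next to the cap (chr10:89392546-89406486), was at 121, 133 and 119.6 CPM in irradiated cultures, against 137, 149 and 111 CPM in controls. Its groups overlapped and its log2 fold change was -0.08 (SE 0.13, adjusted p = 0.678), which became 0.38 with library totals alone (adjusted p = 0.0153). Counts of IFIT1 relative to IFIT3 were 0.875, 0.843 and 0.722 in irradiated cultures, against 1.17, 1.22 and 1.13 in controls, a pair chosen after its values were seen. IFIT5 was at 17.9, 15.6 and 21.9 CPM in irradiated cultures, against 15.6, 15.9 and 19.8 CPM in controls, with overlapping groups (log2 fold change 0.10, SE 0.21, adjusted p = 0.754). The IFIT1, IFIT2 and IFIT3 loci overlap LIPA on the opposite strand.

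**Figure D2:**
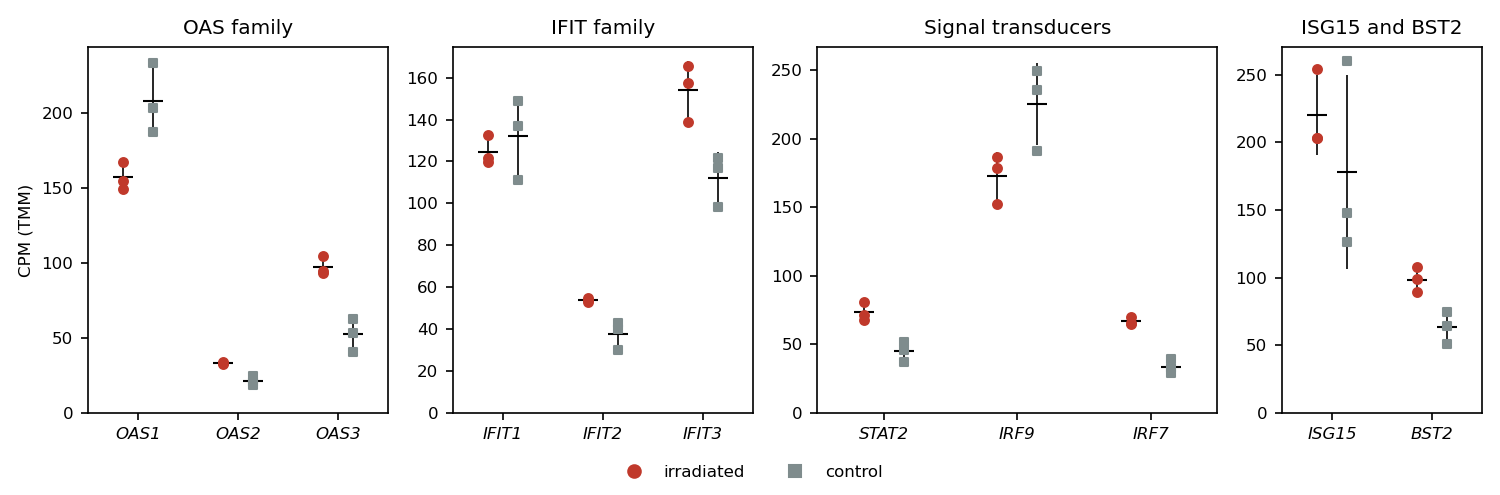
CPM after TMM scaling in irradiated (red circles) and control (grey squares) libraries for members of the OAS and IFIT families, IRF9, STAT2 and IRF7, and ISG15 with BST2, where horizontal lines are means and vertical lines the SD over 3 cultures. OAS1 and IRF9 were lower in irradiated cultures while OAS2, OAS3, STAT2 and IRF7 were higher, but OAS1 and IRF9 turned to log2 fold changes of 0.050 and 0.071 with library totals alone.

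Among the membrane restriction factors BST2 rose, IFITM1 fell and IFITM2 and IFITM3 did not pass the test. BST2, or tetherin, which holds budding virus particles on the cell surface (chr19:17402939-17405648), was at 108, 88.98 and 98.8 CPM in irradiated cultures, against 74.5, 50.8 and 64.4 CPM in controls. All irradiated values exceeded all controls, and BST2 rose (log2 fold change 0.65, SE 0.15, adjusted p = 0.00593). The IFITM proteins block fusion of virus and cell membranes. IFITM1 (chr11:313506-315272) was at 641, 779 and 614 CPM in irradiated cultures, against 1003, 927 and 732 CPM in controls. Irradiated library 2 lay above control 3 and the other values did not overlap. IFITM1 fell by 0.39 on the log2 scale (SE 0.14, adjusted p = 0.0494), whereas with library totals alone its log2 fold change was 0.067. Its call was lost without irradiated library 1 (adjusted p = 0.145), irradiated library 3 (0.209), control 1 (0.208) or control 2 (0.123).

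IFITM3 (chr11:319669-327537) was at 3305, 3879 and 2957 CPM in irradiated cultures, against 4516, 4419 and 3528 CPM in controls. The groups overlapped and the log2 fold change of -0.30 (SE 0.14) did not pass (adjusted p = 0.128), although it did without irradiated library 2 (-0.41, adjusted p = 0.0493) and without control 3 (-0.43, adjusted p = 0.0221), and it was above 0 with library totals alone and with an offset for transcript length. IFITM2 (chr11:307631-315272) was at 272, 341 and 317 CPM in irradiated cultures, against 435, 334 and 299 CPM in controls, with overlapping groups and a log2 fold change of -0.20 (adjusted p = 0.323) that was likewise above 0 under both settings. The annotated IFITM1 and IFITM2 loci overlap on the same strand and the 3 IFITM genes are close paralogs, so the division of reads among them is uncertain.

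Of the ISG15 conjugation genes 1 of 5 rose. ISG15 itself, the ubiquitin-like modifier (chr1:1001138-1014540), was at 254, 203 and 204 CPM in irradiated cultures, against 260.1, 148 and 127 CPM in controls. Control 1 exceeded all irradiated libraries while the other controls lay below them, and the difference did not pass (log2 fold change 0.32, SE 0.20, adjusted p = 0.266), although it did without control 1 (log2 fold change 0.67, adjusted p = 0.0103). HERC6, a relative of the ISG15 ligase HERC5, was at 14.3, 13.9 and 16.1 CPM in irradiated cultures, against 10.5, 9.94 and 7.17 CPM in controls and rose (log2 fold change 0.70, SE 0.24, adjusted p = 0.0411). Its call rested on all libraries, since the adjusted p ran between 0.0506 and 0.138 when any 1 of them was left out. HERC5 was at 9.50, 10.8 and 7.16 CPM in irradiated cultures, against 7.02, 4.59 and 5.93 CPM in controls. Its groups did not overlap, but it did not pass the test (log2 fold change 0.66, SE 0.29, adjusted p = 0.106). UBE2L6, the ISG15-conjugating enzyme, and USP18, which removes ISG15 and dampens the receptor, had log2 fold changes of 0.04 (adjusted p = 0.843) and 0.36 (adjusted p = 0.290).

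Of the TRIM and nuclear body proteins 3 of 5 rose. TRIM22, a ubiquitin ligase with antiviral activity (chr11:5689689-5737089), was at 21.5, 26.9 and 21.5 CPM in irradiated cultures, against 11.3, 4.90 and 9.89 CPM in controls. All irradiated values exceeded all controls, and TRIM22 had the largest increase of all members (log2 fold change 1.44, SE 0.27, adjusted p = 0.00170). PML, which builds the nuclear bodies (chr15:73994673-74047812), was at 92.1, 97.5 and 92.9 CPM in irradiated cultures, against 60.5, 46.97 and 71.6 CPM in controls, and rose without overlap (log2 fold change 0.66, SE 0.15, adjusted p = 0.00572). SP100, a further component of these bodies (chr2:230415942-230544090), was at 120.3, 110.2 and 116 CPM in irradiated cultures, against 80.5, 75.3 and 86.999 CPM in controls. It rose as well (log2 fold change 0.51, SE 0.12, adjusted p = 0.00715). TRIM21, an antibody receptor inside the cell, and TRIM25, a ligase that activates the RNA sensor RIG-I, had log2 fold changes of 0.29 (adjusted p = 0.407) and 0.24 (adjusted p = 0.509).

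Both tested genes of the PARP9 complex rose. PARP9, which acts with DTX3L in ADP-ribosylation and DNA damage signalling (chr3:122527924-122564577), was at 32.5, 33.9 and 30.8 CPM in irradiated cultures, against 23.3, 18.5 and 16.2 CPM in controls. Its groups did not overlap (log2 fold change 0.76, SE 0.19, adjusted p = 0.00826). PARP14 was at 27.2, 24.7 and 25.4 CPM in irradiated cultures, against 16.8, 10.4 and 21.4 CPM in controls, again without overlap (log2 fold change 0.66, SE 0.23, adjusted p = 0.0475), but it passed the test in the absence of a single library only when that was control 3. DTX3L had 1 transcript and so fell outside the filter. In a fit without that condition, over 12572 genes, DTX3L was at 14.9, 14.3 and 15.0 CPM in irradiated cultures, against 10.5, 8.67 and 12.2 CPM in controls, with a log2 fold change of 0.49 (SE 0.21) that did not pass (edgeR, adjusted p = 0.108). PARP9 and DTX3L overlap on opposite strands.

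The GTPases showed 1 increase among 3 tested genes. MX1, which traps virus nucleocapsids (chr21:41420304-41459214), was at 146, 159 and 150.3 CPM in irradiated cultures, against 129, 126 and 100.1 CPM in controls. It rose by the smallest amount among the members called higher (log2 fold change 0.36, SE 0.13, adjusted p = 0.0475), and with any 1 library left out the adjusted p ran between 0.0562 and 0.125. MX2, its relative that blocks HIV capsids, was at 38.8, 21.98 and 41.5 CPM in irradiated cultures, against 24.1, 23.3 and 26.3 CPM in controls. Irradiated library 2 lay below all controls and the others above them, and the difference passed without that library (log2 fold change 0.71, adjusted p = 0.0142) but not with all (log2 fold change 0.47, SE 0.22, adjusted p = 0.118). It also passed with library totals alone (log2 fold change 0.94, adjusted p = 0.0198). GBP1, a guanylate-binding protein that coats bacteria, was at 29.7, 28.1 and 21.7 CPM in irradiated cultures, against 31.6, 29.7 and 26.7 CPM in controls (log2 fold change -0.14, SE 0.18, adjusted p = 0.604). GBP2 had 11, 4 and 8 counts in irradiated libraries, against 1, 6 and 22 counts in controls, too few for the test.

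None of the 7 other induced proteins passed the test (0 called by edgeR and by DESeq2, 2 at an unadjusted p under 0.05), and their log2 fold changes ran between -0.31 and 0.48. IFI44 was at 41.7, 52.3 and 41.9 CPM in irradiated cultures, against 38.9, 29.4 and 29.9 CPM in controls. Its groups did not overlap, it missed the threshold narrowly (log2 fold change 0.48, SE 0.17, adjusted p = 0.0502) and it passed without control 1 (log2 fold change 0.60, adjusted p = 0.0339). IFI27, a mitochondrial protein, was at 413, 375 and 349 CPM in irradiated cultures, against 319.8, 338 and 272 CPM in controls. These groups did not overlap either (log2 fold change 0.29, SE 0.12, adjusted p = 0.0877). IFI35 was at 70.8, 81.8 and 68.6 CPM in irradiated cultures, against 98.6, 104 and 72.2 CPM in controls, with a log2 fold change of -0.31 (adjusted p = 0.142) that became -0.49 without control 3 (adjusted p = 0.00973). IFI6, a regulator of cell death, had overlapping groups and a log2 fold change of -0.13 (adjusted p = 0.522) that became 0.33 with library totals alone (adjusted p = 0.0382). LGALS3BP, a secreted binding partner of galectins, was at 324, 315 and 258 CPM in irradiated cultures, against 288, 233 and 278 CPM in controls (log2 fold change 0.17, SE 0.13, adjusted p = 0.354). IFI44L and XAF1 averaged 2.68 and 1.07 CPM in irradiated libraries, against 2.34 and 1.15 CPM in controls, and were measured with few reads.

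**Figure D3:**
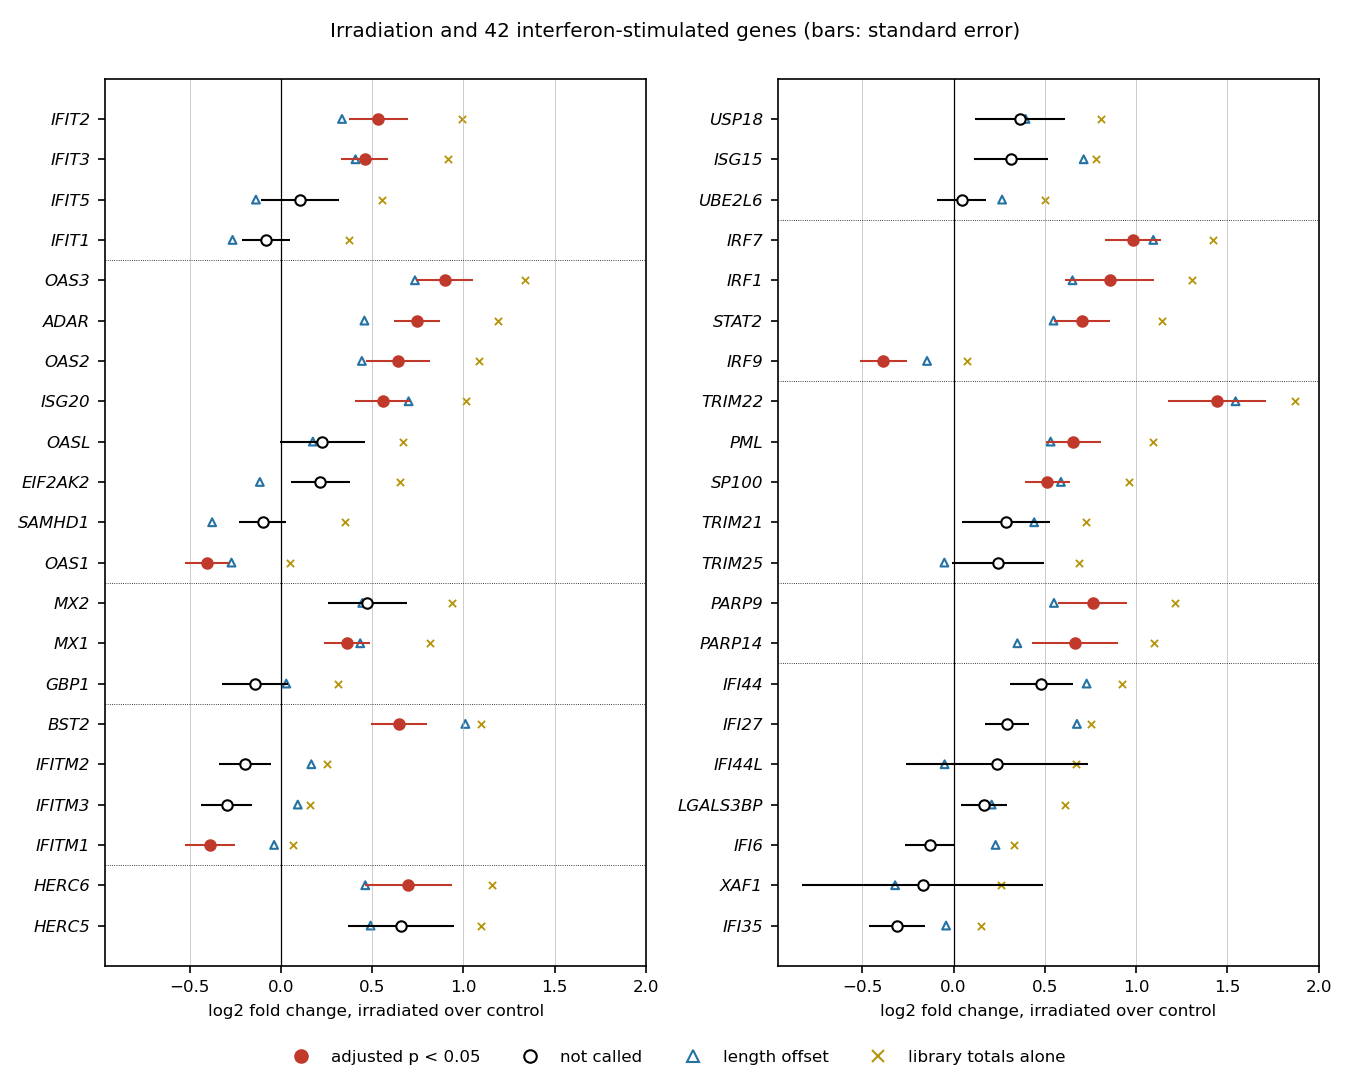
Log2 fold change of irradiated over control with its standard error for 42 members, filled red where the adjusted p was under 0.05, beside the value with a transcript length offset (triangles) and with library totals alone (crosses). Crosses lie above 0 for every member, including IFITM1, IRF9 and OAS1, whose main values lie below 0.

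Fold changes in these libraries differed with transcript length across all genes, and the members span a wide range of lengths, with a median of 2265 bases, beside 2689 bases in all genes. Of genes whose counted transcripts averaged under 1000 bases, 36.9% fell and 4.94% rose, whereas of those of 3000 bases or more 3.89% fell and 14.7% rose. Among members, 1 of 7 under 1000 bases rose (BST2) and 1 fell (IFITM1), with a median of -0.13, beside -0.44 in all genes of that length. Of the 17 members of 3000 bases or more, 9 rose and 0 fell, with a median of 0.64, beside 0.29. With an offset fitted to remove the length trend within each library, 14 members rose and 0 fell, with a median of 0.40 in members and 0.0046 in all genes. That offset kept 11 of the 20 calls, and HERC6, IFIT2, IFITM1, IRF1, IRF9, OAS1, OAS2, PARP14 and PARP9 no longer passed. It added ISG15 (log2 fold change 0.71, adjusted p = 0.0292), IFI27 (log2 fold change 0.68, adjusted p = 0.00109) and IFI44 (log2 fold change 0.73, adjusted p = 0.00637). The part of length in the member results was not tested beyond these values.

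**Figure D4:**
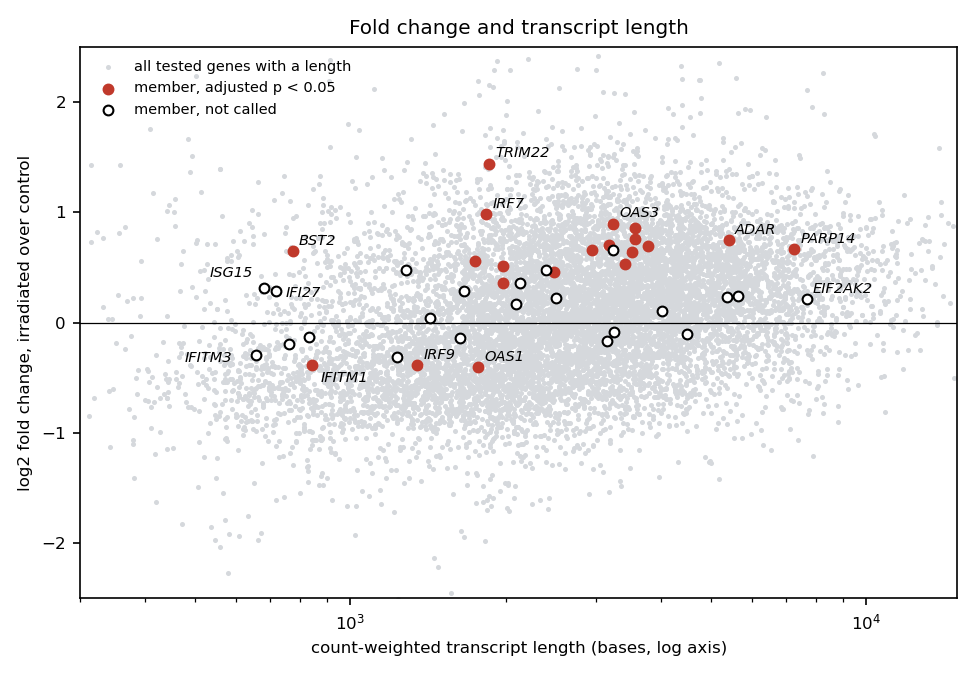
Log2 fold change of irradiated over control against count-weighted transcript length on a log axis, for all tested genes with a known length (grey) and for members (red where the adjusted p was under 0.05, open otherwise). Short genes lie lower as a whole, and BST2 rose in the range where IFITM1 fell, although the value of IFITM1 turned above 0 with library totals alone.

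Of 31 other genes of the interferon pathway 16 were tested, and 4 rose and 0 fell at an adjusted p under 0.05 (11.6% of all genes rose), while 12 did not pass. Among these, 2 lay lower at an unadjusted p under 0.05, and DESeq2 also called 0 lower. IFNGR2, a chain of the interferon gamma receptor, was at 70.9, 66.7 and 69.7 CPM in irradiated cultures, against 26.6, 20.3 and 49.2 CPM in controls. Control 3 lay above the other controls and below every irradiated library, and IFNGR2 rose (log2 fold change 1.09, SE 0.23, adjusted p = 0.00380), the only one of the 4 with a log2 fold change over 1.

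IFNAR2, a chain of the type I receptor, was at 33.3, 27.1 and 22.9 CPM in irradiated cultures, against 14.5, 9.64 and 21.997 CPM in controls. It rose (log2 fold change 0.83, SE 0.26, adjusted p = 0.0270), but not without irradiated library 1 (adjusted p = 0.121), control 1 (0.0572) or control 2 (0.108), nor with the length offset (0.0561). TYK2, the kinase bound to IFNAR1, was at 24.5, 32.3 and 32.6 CPM in irradiated cultures, against 17.1, 20.8 and 18.4 CPM in controls. It rose (log2 fold change 0.66, SE 0.19, adjusted p = 0.0190), but not without irradiated library 2 (adjusted p = 0.0623), irradiated library 3 (0.0882) or control 1 (0.0644). The other receptor chains and kinases tested did not pass, with IFNAR1 at a log2 fold change of -0.15, IFNGR1 at -0.09 and JAK1 at 0.42. Among negative regulators 0 of 4 tested passed, and PTPN2 and PIAS1 had log2 fold changes of -0.51 (adjusted p = 0.0669) and -0.50 (adjusted p = 0.0891). With the length offset PIAS1 passed as lower (log2 fold change -0.81, adjusted p = 0.0153).

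None of the 9 interferon genes listed reached the filter. IFNB1 had 3, 2 and 0 counts in irradiated libraries, against 2, 0 and 1 counts in controls. IFNE and IFNL1 had at most 2 counts in any library, and the other 6 had no row in the table. At this depth a difference in interferon RNA was not detectable. SOCS1, a feedback inhibitor of the kinases, had 6, 6 and 4 counts in irradiated libraries, against 0, 1 and 6 counts in controls, and was not tested.

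At transcript level 479 member transcripts were tested in 42 genes, and 122 rose and 30 fell (edgeR, adjusted p under 0.05 over all transcripts tested). These are 25.5% higher, beside 8.54% of all transcripts, and 6.26% lower, beside 10.7%. Past a log2 fold change of 1, 50 rose (10.4%, beside 3.36%) and 4 fell (0.835%, beside 4.33%). Transcripts rose in 29 genes and fell in 8, and 4 genes held both kinds. Of 22 members that did not pass at gene level 9 had a transcript that rose and 5 had one that fell. The shares of all genes with such transcripts were not computed. GENCODE release 29 gave a class to 231 of the 479 transcripts, and of the 122 that rose 40 were protein coding, 12 retained an intron, 8 were of the nonsense-mediated decay class, 6 were processed transcripts and 56 had no class there. The count of 152 transcripts called was 97 without irradiated library 1, 98 without irradiated library 3 and 85 without control 2, and past the log2 fold change of 1 the 54 called became 31 without control 2 and 97 without control 3.

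Isoform use was compared in ISG15 first, since it held the only member transcript that passed the main usage test with a change of at least 10 points. Its protein-coding transcript ENST00000624697 (787 bases) was at 86.3, 59.4 and 67.9 CPM in irradiated cultures, against 38.5, 32.5 and 32.8 CPM in controls. The groups did not overlap, and this transcript rose (log2 fold change 1.05, SE 0.17, adjusted p = 2.56e-08). The shorter protein-coding transcript ENST00000649529 (637 bases) was at 163, 141 and 131 CPM in irradiated cultures, against 224, 121 and 93.97 CPM in controls, with overlapping groups and no change that passed (log2 fold change -0.00, SE 0.16, adjusted p = 0.991). The isoform fraction, the share of a gene's counts taken by a transcript, was 34.6, 29.7 and 34.0% for ENST00000624697 in irradiated cultures, against 14.7, 21.1 and 25.8% in controls. The gain of 12.2 points passed the usage test (diffSpliceDGE in edgeR, adjusted p = 0.0297, with an absolute change of at least 10 points). It was 1 of 479 member transcripts to do so, beside 0.404% of all transcripts. That call was lost when any 1 library except control 3 was left out (adjusted p between 0.0607 and 0.253), and without control 3 there were 6 switches among member transcripts. With limma's diffSplice ENST00000624697 did not pass (adjusted p = 0.0541), whereas the loss of 12.3 points in ENST00000649529 did (adjusted p = 0.0499).

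BST2 showed a shift between its annotated transcripts. ENST00000527220, of 335 bases, is classed as a processed transcript in the GENCODE release used here. It was at 45.2, 32.7 and 40.6 CPM in irradiated cultures, against 17.2, 9.40 and 21.7 CPM in controls. It rose (log2 fold change 1.28, SE 0.17, adjusted p = 5.37e-11), while the protein-coding ENST00000252593 was at 60.8, 55.000 and 56.2 CPM in irradiated cultures, against 57.96, 43.5 and 42.95 CPM in controls and did not pass (log2 fold change 0.26, SE 0.16, adjusted p = 0.267). The fraction of ENST00000527220 was 42.6, 37.3 and 41.9% in irradiated cultures, against 22.9, 17.8 and 33.6% in controls. The gain of 15.9 points missed the usage test (diffSpliceDGE, adjusted p = 0.0664). It passed without control 3 (adjusted p = 0.00426), with the replicate number as a block (0.0202) and with limma's diffSplice (0.0229). Without any other single library it did not pass. The paper, which used IsoformSwitchAnalyzeR, lists BST2 among the genes with a significant isoform switch. There the gained BST2 isoform is classed as associated with nonsense-mediated decay and the reduced one as protein coding. The paper's text names no BST2 transcript. If its gained isoform is ENST00000527220, the class differs between the annotations.

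In IFI44 4 shorter transcripts rose while the longest coding one did not pass. That one, ENST00000370747, was at 18.6, 25.4 and 19.3 CPM in irradiated cultures, against 26.1, 20.2 and 19.5 CPM in controls, with overlapping groups. Its fraction was 45.5, 49.1 and 47.0% in irradiated cultures, against 66.5, 66.1 and 64.9% in controls, a loss of 18.6 points on average that did not pass diffSpliceDGE (adjusted p = 0.125) but passed limma's diffSplice (adjusted p = 0.000184). The transcripts ENST00000495254, ENST00000476911, ENST00000446486 and ENST00000472152 each rose, with log2 fold changes of 1.03, 1.18, 1.16 and 1.04. UBE2L6 and TRIM21 likewise had a transcript that rose without a change in the gene that passed: ENST00000340573 of UBE2L6 changed by 0.51 on the log2 scale (adjusted p = 0.0196) and ENST00000533692 of TRIM21 one of 1.20 (adjusted p = 0.0103), the TRIM21 one not passing without irradiated library 3, without control 2 or with DESeq2.

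**Figure D5:**
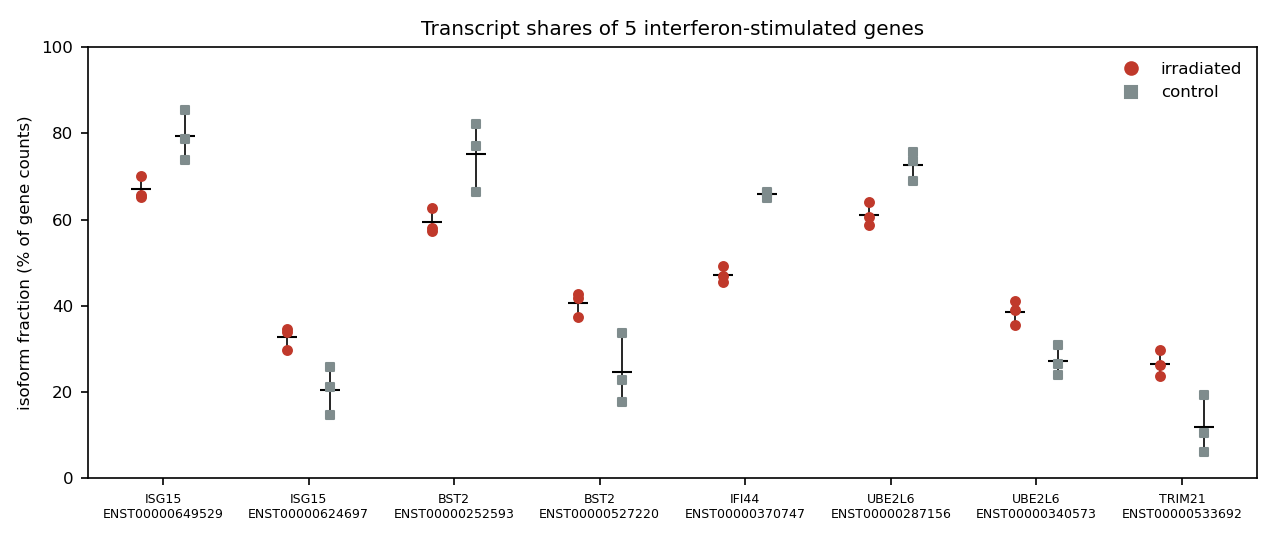
Isoform fractions, as percent of the gene's counts, of 8 transcripts of 5 members, chosen for their large change in fraction, in irradiated (red circles) and control (grey squares) libraries, with means and SDs over 3 cultures. The groups did not overlap in any of the 8 transcripts shown, which were selected for large changes, and fractions of the same gene depend on each other. The lack of overlap is therefore no separate support, and its share over all transcripts was not computed. ENST00000624697 of ISG15 alone passed the usage test with its 10-point limit in the main analysis.

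In the IFITM family some minor transcripts rose while gene-level values were below those of controls, although above them with library totals alone and, for IFITM2 and IFITM3, with a length offset. IFITM3 transcript ENST00000679793 was at 46.1, 42.5 and 38.3 CPM in irradiated cultures, against 17.97, 13.5 and 24.2 CPM in controls. It rose (log2 fold change 1.17, SE 0.17, adjusted p = 1.72e-09) although the gene did not, and 3 further IFITM3 transcripts, ENST00000681304, ENST00000680920 and ENST00000681840, rose with log2 fold changes of 1.09, 1.14 and 1.11. Each took about 1% of IFITM3 counts, 1.28% in irradiated and 0.457% in control cultures for ENST00000679793. IFITM1 transcript ENST00000528780, protein coding, was at 17.5, 15.8 and 15.03 CPM in irradiated cultures, against 8.86, 8.28 and 8.81 CPM in controls, and it rose (log2 fold change 0.90, SE 0.20, adjusted p = 0.000113) while the gene fell, a fall that turned to 0.067 with library totals alone. In IFITM1, 2 of 20 transcripts rose and 7 fell. Small fractions of this kind made up most of the usage calls: 37 member transcripts passed the usage test (7.72%, beside 4.44% of all transcripts), of which 36 moved by under 10 points.

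Other members changed across many transcripts in the direction of the gene. In OAS3 13 of 28 transcripts rose and 0 fell, in ADAR 16 of 36 rose and 0 fell, and in IRF7 6 of 10 rose and 0 fell. TRIM22 transcript ENST00000454828, protein coding, was at 5.25, 4.87 and 3.63 CPM in irradiated cultures, against 1.77, 0.478 and 1.12 CPM in controls. It rose (log2 fold change 2.11, SE 0.36, adjusted p = 2.80e-07), as did the leading transcript ENST00000379965 (log2 fold change 1.10, SE 0.27, adjusted p = 0.000698). In OAS1 6 of 29 transcripts fell and 2 rose. The OAS1 transcript ENST00000680189 was at 11.7, 16.8 and 12.6 CPM in irradiated cultures, against 32.9, 28.5 and 23.6 CPM in controls, and fell by 1.03 on the log2 scale (SE 0.18, adjusted p = 3.34e-07), with a log2 fold change of -0.54 under library totals alone. In IRF9 8 of 48 transcripts fell and 1 rose, and its leading transcript ENST00000396864 was at 11.7, 16.96 and 15.4 CPM in irradiated cultures, against 29.6, 33.1 and 21.97 CPM in controls. That transcript fell by 0.94 on the log2 scale (SE 0.18, adjusted p = 4.18e-06). Of the leading transcripts of the 38 named members 8 rose and 4 fell, those that fell being of IFITM1, IFITM2, IRF9 and OAS1. Over all transcripts tested 8.54% rose and 10.7% fell, and the shares among leading transcripts of all genes were not computed.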

How the data were processed

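RNA of irradiated and control HMC3 cells was compared in 6 libraries, 3 per group. The deposited values are read counts for each transcript, in whole numbers, which the authors made with minimap2, StringTie2, GffCompare and Salmon on GRCh38. Versions, annotation release and strand handling were not given in the sources used, and no collapsing of reads by molecular identifier is described, so reads may include PCR copies. No per-sample column was left out.

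As the study states, genes reaching 10 counts in 3 or more libraries were kept if 2 or more of their transcripts reached 3 counts in any library, which left 74843 transcripts of 11118 genes and between 95.6 and 96.4% of each library's counts. Counts were summed per gene and tested with edgeR 4.0.16 (TMM, robust glmQLFit, glmQLFTest) in R 4.3.3, adjusted by Benjamini-Hochberg over all features tested. The study used DESeq2, which here (1.42.0) is an alternative. The threshold was an adjusted p of 0.05, and a log2 fold change of 1 where stated. The SE was obtained by dividing the size of the log2 fold change by the root of the F statistic. CPM are scaled by TMM factors (1.09 to 1.24 in irradiated libraries, 0.793 to 0.928 in controls). Isoform fractions are shares of kept counts, not divided by length, and usage was tested with diffSpliceDGE and, as an alternative, diffSplice of limma 3.58.1. Transcript lengths, classes and gene coordinates came from GENCODE release 29 and promoter windows from RefSeq (GRCh38.p14), matched by symbol.

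Other alternatives were RLE factors, library totals alone, other filters, a length offset, a replicate block and leaving out single libraries. Scripts were tested on simulated counts with known fold changes. Precision is limited by depth, and genes under 10 CPM rest on few reads. Some items are not reported here.

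Members, role groups and pathway and marker lists were chosen with earlier results of these data known. Genes named are members that passed the test, members averaging 10 CPM or more and the member with the highest CPM of each role group. HERC5, TRIM25, IFI44L and XAF1 fall outside this rule and were named to account for all members. For transcripts the text names the leading one of each named gene and examples among those that passed a test. Plots were drawn in Python 3.11.15 (pandas 2.3.3, matplotlib 3.10.9).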

Additional observations from a re-analysis of the deposited data

How the results depend on the processing

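Of the log2 fold changes of the 42 tested members under 13 alternatives, 435 values kept their direction and side of the threshold, 61 no longer passed it, 24 newly passed it and 25 changed sign. With library totals alone 11 changed sign: GBP1 0.31, IFI35 0.15, IFI6 0.33, IFIT1 0.38, IFITM1 0.067, IFITM2 0.25, IFITM3 0.16, IRF9 0.071, OAS1 0.050, SAMHD1 0.35 and XAF1 0.26, a scaling that moved the median of all genes to 0.53. That scaling also gave 31 members called and 14 past a log2 fold change of 1, a member median of 0.79, 8 pathway genes, 232 member transcripts with 166 past the limit, 1949 genes and 13185 transcripts past the limit over the whole table, and a summed ratio of 1.28. With TMM scaling the summed ratio without the 3 most abundant members was 1.16. The length offset changed the sign of 8 members (EIF2AK2 -0.115, GBP1 0.030, IFI44L -0.049, IFI6 0.23, IFIT5 -0.14, IFITM2 0.17, IFITM3 0.093 and TRIM25 -0.050), none past the threshold with TMM scaling or with that offset, and gave 3 members past the limit, and no filter gave 973 genes past it. DESeq2 called 83 member transcripts, 34 past the limit, and 7916 and 2963 transcripts over the whole table. The cause of these differences between settings was not tested.

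With 1 library left out, members called ran from 11 to 19 and members past the limit from 1 to 4, genes called from 1671 to 3657 and past the limit from 387 to 1215, and transcripts called from 8574 to 18165 and past the limit from 3085 to 9638. Member transcripts called ran from 85 to 180 and past the limit from 31 to 97, switched member transcripts from 0 to 6, pathway genes called from 3 to 4 and the member median from 0.35 to 0.43. The remaining 6 sign changes were in members that did not pass: IFIT1 ran from -0.22 to 0.020, IFIT5 from -0.036 to 0.21, UBE2L6 from -0.075 to 0.097 and XAF1 from -0.475 to 0.10. Switched member transcripts were 7 with limma's diffSplice and 2 with fractions divided by length.

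Deviations of same-numbered libraries from their group means correlated at -0.005, 0.121 and 0.033, so the numbers were not treated as pairs. With the replicate number as a block 24 members were called, against 20 without it, and 3 member transcripts were switched, against 1. Irradiated libraries 2 and 3 each correlated best with the control of their own number and irradiated library 1 did not.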
